A study of Homo sapiens with 6 samples.

Results

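The mitotic kinesins around KIF11 were 10 genes, namely KIF11, KIF15, KIF20A, KIF23, KIF18A, KIF2C, KIF4A, KIFC1, KIF14 and CENPE. They were chosen by gene symbol among the 20030 genes of a count table of HepG2 cells, an established human hepatoma line, and all 10 passed the low-count filter. In the study, HepG2 cells that stably carried a control shRNA (sh-ctrl, 3 libraries) were compared with HepG2 cells that stably carried an shRNA against KIF11 (sh-KIF11, 3 libraries), a comparison made there to follow the role of KIF11 in cellular senescence. Both kinds of cells had been infected with lentivirus made from the pLKO.1 vector, and per the study's methods infected cells were selected with puromycin. An shRNA is a short hairpin RNA that the cell cuts into a guide, which directs cleavage of the matching mRNA. The oligo list gives 1 hairpin against KIF11, so no second hairpin controls for its other effects, and no label says whether the libraries of a group came from separate cultures. The p-values therefore measure the spread between these libraries, which may be technical.

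Kinesins are motor proteins that move along microtubules with energy from ATP. In mitosis some slide or cross-link the microtubules of the spindle, some shorten microtubules at their ends, and others carry chromosomes or organise the midzone at which the cell divides. KIF11 (Eg5, kinesin-5) is a four-headed motor that pushes antiparallel microtubules apart and so separates the spindle poles. KIF15 (kinesin-12) is known as the motor that can keep a spindle bipolar when KIF11 is inhibited, and KIFC1 (HSET, kinesin-14) pulls inward against KIF11. Genes of this kind are typically transcribed in G2 and M phase, so their mRNA levels in a culture can change with the share of dividing cells.

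The hairpin is shown because KIF11 was its intended target and the other 9 genes are of the same family. The guide, 5′ to 3′ in DNA letters with its seed (bases 2 to 8) in capitals, and the KIF11 coding sequence at the site, with the 21 target bases in capitals and 20 bases on either side, were as follows.
sh-KIF11 guide: aTTCTACTattgaatgggcgc
KIF11 site: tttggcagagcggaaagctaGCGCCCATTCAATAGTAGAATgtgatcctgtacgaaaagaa
The site lies on the plus strand at chr10:92606294-92606314 (GRCh38, GENCODE release 29), in exon 2 of 22 of KIF11-201 and within the coding sequence, from base 197 of the 4860 of that transcript. Of all transcripts of the annotation, 1 held the 21 bases without a mismatch. The longest coding transcripts of the other 9 kinesins held no site with fewer than 7 mismatches, and the best one was in KIF14, with 14 matching bases. A match to the 7 seed bases was found 3 times in the KIF14 transcript, once each in KIF15, KIF18A, KIF4A and CENPE, and not in KIF20A, KIF23, KIF2C or KIFC1. A short match is a description and no evidence that the guide bound there.

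Library totals were alike, from 18318295 to 19583282 counts in sh-ctrl and from 18167773 to 19102804 in sh-KIF11. Levels are given as CPM, counts scaled to library size and then by TMM, an edgeR method that sets the bulk of genes equal. The cells of sh-ctrl had the genes of the hepatocyte lineage at high levels (ALB at 8365 CPM, AFP at 2825 CPM). The summed level of 10 such markers was 32963 to 34588 CPM in sh-ctrl and 14627 to 15823 CPM in sh-KIF11. Of the 10, 9 were called lower and TTR did not pass the test, with no log2 fold change above −0.13 among them. Of 8 markers of immune, endothelial and fibroblast cells, 4 were too low to test (PTPRC, COL1A1, COL3A1 and CD3E, with group means of at most 0.200 CPM, that of COL1A1 in sh-KIF11), and the sum of the 8 was 83.2 to 94.8 CPM in sh-ctrl and 48.2 to 52.7 CPM in sh-KIF11, most of it from CD68. Whether these markers have a part in the kinesin changes was not tested.

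KIF11 mRNA, the targeted gene, was down-regulated but far from lost. Counts were 1976, 2088 and 2039 for the sh-ctrl libraries against 1448, 1478 and 1240 for the sh-KIF11 libraries, or 111, 116 and 121 CPM against 72.2, 71.4 and 62.9 CPM. Every sh-KIF11 library was below every sh-ctrl library. The fall was 40.6%, a log2 fold change of −0.75 ± 0.06 (SE, n = 3 libraries per group, edgeR quasi-likelihood test, Benjamini-Hochberg adjusted p = 4.22e-15). In bulk RNA, fewer dividing cells and less KIF11 mRNA per cell cannot be told apart.

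The background is large in this comparison. Of 12369 genes tested, 34.7% were lower and 34.4% were higher at an adjusted p under 0.05, and 35.8% had all sh-KIF11 libraries below all sh-ctrl libraries while 35.4% had them all above. With scaling by library totals alone, 26.4% of the called genes were lower in place of 50.2%, and with limma on log2(FPKM + 1) 31.5% and on log2(FPKM + 0.1) 31.4%. Scaling by totals alone moved the median change over all genes from 0.0043 to 0.24 on the log2 scale. Among the 10 kinesins, 5 were lower, 3 were higher and 2 did not pass the test. Their median log2 fold change was −0.32, and it was −0.087 with library totals alone, where all tested genes had 0.24, and −0.17 with log2(FPKM + 1), where all tested genes had 0.12. With library totals alone, 19.2% of all tested genes were lower and 53.5% were higher, and 5 of the kinesins were lower and 5 higher.

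**Figure D1:**
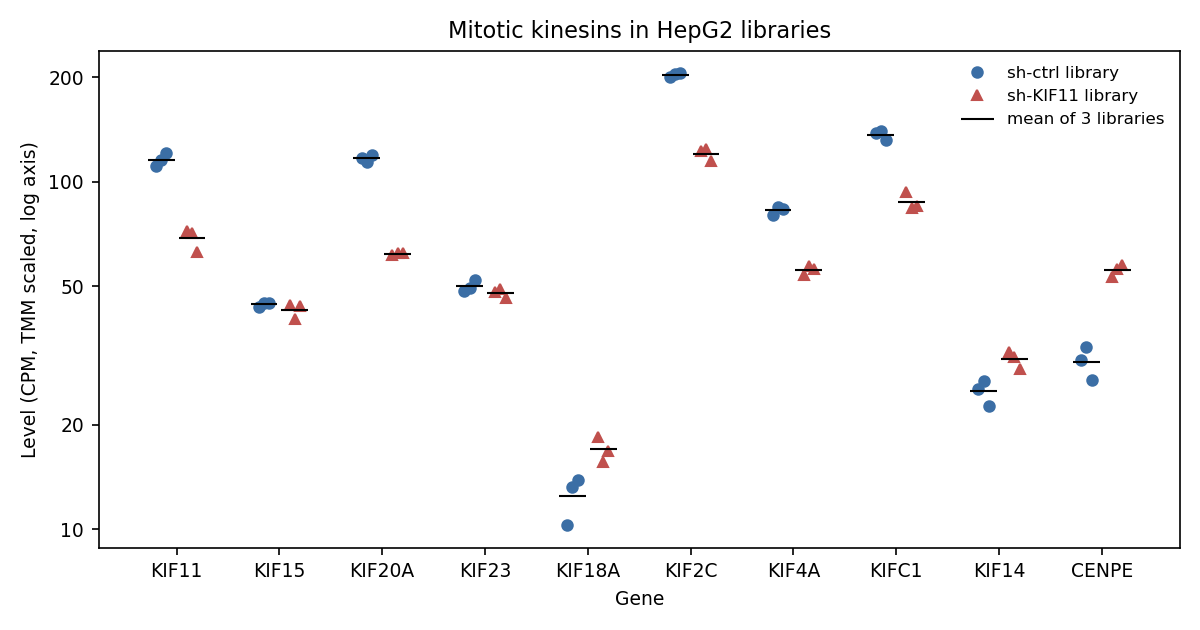
Levels of the 10 kinesins in each library (CPM after TMM scaling, log axis), with 3 sh-ctrl libraries as circles, 3 sh-KIF11 libraries as triangles and a bar at each mean. KIF11, KIF20A, KIF2C, KIF4A and KIFC1 are lower in every sh-KIF11 library, KIF18A, KIF14 and CENPE are higher in every one, and the libraries of KIF15 and KIF23 overlap.

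KIF15, the motor that shares the outward pushing role with KIF11, stayed near its control level. It had 43.6, 44.7 and 44.9 CPM in sh-ctrl and 44.2, 40.3 and 43.8 CPM in sh-KIF11, and the groups overlapped. Its log2 fold change was −0.05 ± 0.07 (SE, n = 3 per group, edgeR adjusted p = 0.50), with a 95% interval from −0.19 to 0.09. That interval lies wholly above the interval of KIF11, which ran from −0.87 to −0.63. The call of KIF15 depends on the scaling. With library totals alone its log2 fold change was 0.18 (edgeR adjusted p = 0.020), below the 0.24 of the median tested gene under that scaling, and with an offset for GC content, described below, it was −0.20 (edgeR adjusted p = 0.0051).

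A ratio of 2 genes within a library needs no scaling between libraries. KIF11 had 2.54, 2.59 and 2.69 counts per KIF15 count in sh-ctrl libraries, against 1.63, 1.77 and 1.44 in sh-KIF11. Every sh-KIF11 ratio was below every sh-ctrl ratio. The log2 ratio fell by 0.70 ± 0.09 (SE), with p = 0.10 in a two-sided exact permutation test over the 6 libraries and 0.15 after adjustment over the 9 ratios compared. With 3 libraries against 3 this test cannot go below 0.10, so no ratio could pass the threshold.

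KIFC1, the inward pulling kinesin-14, fell by 36.0% on average. It had 138, 139.6 and 132 CPM in sh-ctrl and 93.4, 84.1 and 84.9 CPM in sh-KIF11, with no overlap. Its log2 fold change was −0.64 ± 0.05 (SE, n = 3 per group, edgeR adjusted p = 5.79e-14). The log2 ratio of KIF11 to KIFC1 changed by −0.11 ± 0.08 (SE, exact permutation p = 0.30), and its libraries overlapped between the groups, from 0.802 to 0.915 counts of KIF11 per count of KIFC1 in sh-ctrl and from 0.74 to 0.849 in sh-KIF11.

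Of the motors of the midzone and of cytokinesis, 2 fell, 1 rose and 1 did not pass the test. Among all tested genes, 34.7% were lower and 34.4% were higher. KIF20A (MKLP2, kinesin-6), which brings the chromosomal passenger complex to the midzone, had 117, 114 and 119 CPM in sh-ctrl and 61.5, 62.6 and 62.3 CPM in sh-KIF11. All sh-KIF11 libraries were lower, by 46.8% on average, and the log2 fold change was −0.91 ± 0.05 (SE, n = 3 per group, edgeR adjusted p = 1.10e-18). This estimate was below that of the targeted gene. The ratio of KIF11 to KIF20A was 0.948, 1.01 and 1.01 in sh-ctrl, against 1.17, 1.14 and 1.01 in sh-KIF11, and its log2 change of 0.16 ± 0.07 (SE) had p = 0.30 in the exact permutation test.

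KIF23 (MKLP1, kinesin-6) is the motor of centralspindlin, which bundles midzone microtubules. It had 48.5, 49.5 and 52.1 CPM in sh-ctrl and 48.1, 49.1 and 46.4 CPM in sh-KIF11, and the groups overlapped. Its log2 fold change was −0.06 ± 0.07 (SE, n = 3 per group, edgeR adjusted p = 0.40). It behaved like KIF15 under other scalings, at 0.17 with library totals alone (edgeR adjusted p = 0.021) and −0.18 with the GC offset (edgeR adjusted p = 0.0061).

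KIF4A (kinesin-4) sets the length of the midzone and also works on mitotic chromosomes. It had 80.3, 84.5 and 83.7 CPM in sh-ctrl and 53.9, 57.1 and 56.1 CPM in sh-KIF11, with no overlap and a log2 fold change of −0.57 ± 0.06 (SE, n = 3 per group, edgeR adjusted p = 1.34e-11). Its near-identical copy KIF4B was listed with 20 to 25 counts in sh-ctrl and 23 to 27 in sh-KIF11, against 1413 to 1525 and 1082 to 1181 for KIF4A, and how reads shared by both were counted is not given in the sources used here.

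KIF14 (kinesin-3) works with citron kinase in the last steps of cytokinesis. Its levels were 25.3, 26.7 and 22.7 CPM in sh-ctrl and 32.3, 31.4 and 28.9 CPM in sh-KIF11. All sh-KIF11 libraries were higher, and the log2 fold change was 0.31 ± 0.08 (SE, n = 3 per group, edgeR adjusted p = 8.45e-04). The rise did not hold once GC content was modelled, at 0.06 with the GC offset (edgeR adjusted p = 0.49) and −0.04 with the GC and length offset (edgeR adjusted p = 0.68).

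The kinesins of chromosomes and microtubule ends moved in both directions. KIF2C (MCAK, kinesin-13) removes tubulin from microtubule ends and corrects wrong attachments at centromeres. It was the highest of the 10, at 199.8, 205 and 205 CPM in sh-ctrl and 122, 125 and 115 CPM in sh-KIF11, with no overlap. Its log2 fold change of −0.75 ± 0.05 (SE, n = 3 per group, edgeR adjusted p = 6.47e-17) was the same to 2 decimals as that of KIF11. The ratio of KIF11 to KIF2C was 0.554 to 0.588 in sh-ctrl and 0.548 to 0.589 in sh-KIF11, with a log2 change of 0.0023 ± 0.040 (SE, exact permutation p = 0.90).

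KIF18A (kinesin-8) dampens chromosome movements at metaphase by acting on the plus ends of kinetochore microtubules. It was low, with 183, 239 and 234 counts for the sh-ctrl libraries against 370, 324 and 331 for sh-KIF11, or 10.3, 13.2 and 13.9 CPM against 18.4, 15.7 and 16.8 CPM. The groups did not overlap, and the log2 fold change was 0.45 ± 0.10 (SE, n = 3 per group, edgeR adjusted p = 2.53e-04). With the GC offset it was 0.17 (edgeR adjusted p = 0.15) and with the GC and length offset 0.14 (edgeR adjusted p = 0.22), so this call was also lost.

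CENPE (CENP-E, kinesin-7) carries chromosomes along spindle microtubules to the metaphase plate. Its counts of 548, 605 and 454 under sh-ctrl compare with 1071, 1159 and 1139 under sh-KIF11, or 30.7, 33.5 and 26.9 CPM against 53.4, 56.0 and 57.8 CPM. Every sh-KIF11 library was higher, by 83.4% on average, and the log2 fold change was 0.87 ± 0.07 (SE, n = 3 per group, edgeR adjusted p = 1.20e-13). It stayed called with the GC offset, at 0.54, and with the GC and length offset, at 0.43. The ratio of KIF11 to CENPE went from 3.61, 3.45 and 4.49 in sh-ctrl to 1.35, 1.28 and 1.09 in sh-KIF11.

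**Figure D2:**
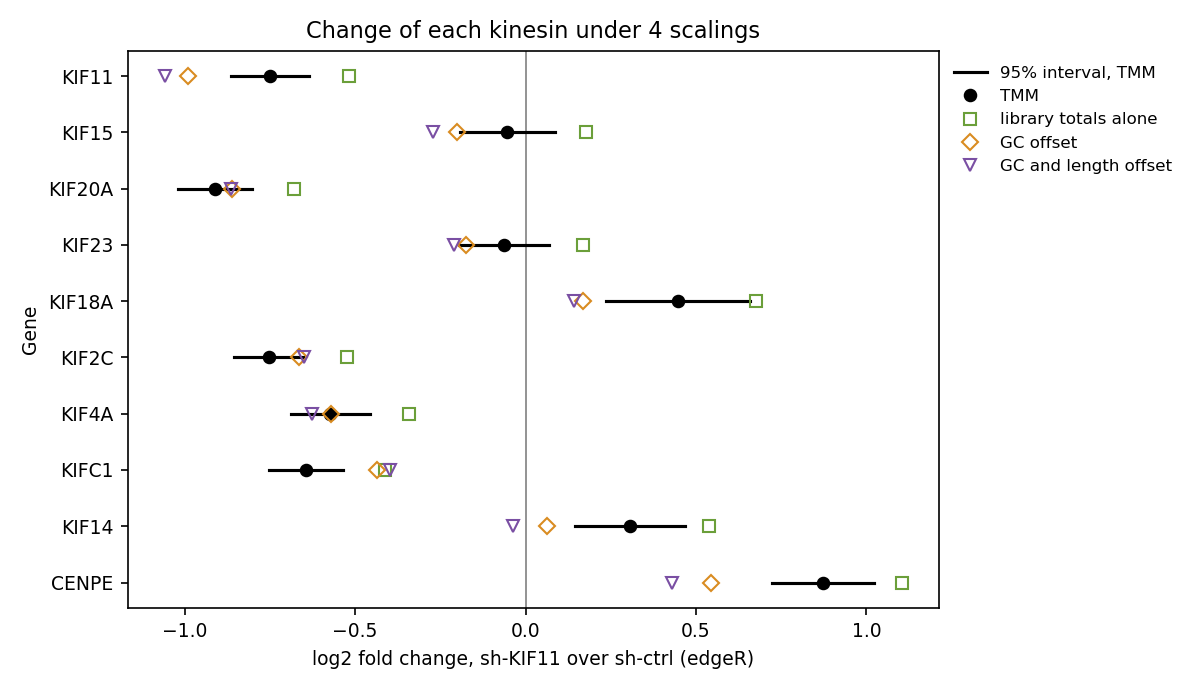
log2 fold changes of the 10 kinesins (sh-KIF11 over sh-ctrl, edgeR), as filled circles with 95% intervals for TMM scaling and as open marks for library totals alone, a GC offset and a GC and length offset. KIF11, KIF20A, KIF2C, KIF4A and KIFC1 lie below 0 under all 4 and CENPE above 0 under all 4, while KIF15 and KIF23 lie on either side of 0 and KIF14 ends at −0.04 with the GC and length offset.

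Across the 9 ratios, the groups did not overlap in 6, all lower in sh-KIF11. The same ratio of KIF11 to each of the 12368 other tested genes was lower without overlap in 85.6% and higher without overlap in 3.24%, so 6 of 9 is no more than this background. These were the ratios of KIF11 to KIF15, KIF23, KIF18A, KIF4A, KIF14 and CENPE, with log2 changes of −0.70, −0.69, −1.21, −0.18, −1.06 and −1.63. Each had the smallest p that the exact permutation test allows, 0.10, which was 0.15 after adjustment. The ratios to KIF20A, KIF2C and KIFC1 overlapped between the groups, so a lower KIF11 was not detectable against these 3 kinesins in the counts as deposited. With the GC offset, described below, the log2 fold changes were −0.99 for KIF11, −0.86 for KIF20A, −0.66 for KIF2C and −0.44 for KIFC1, and with the GC and length offset −1.06, −0.87, −0.65 and −0.40, so the estimate for KIF11 was then below those of all 3; these differences were not tested.

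**Figure D3:**
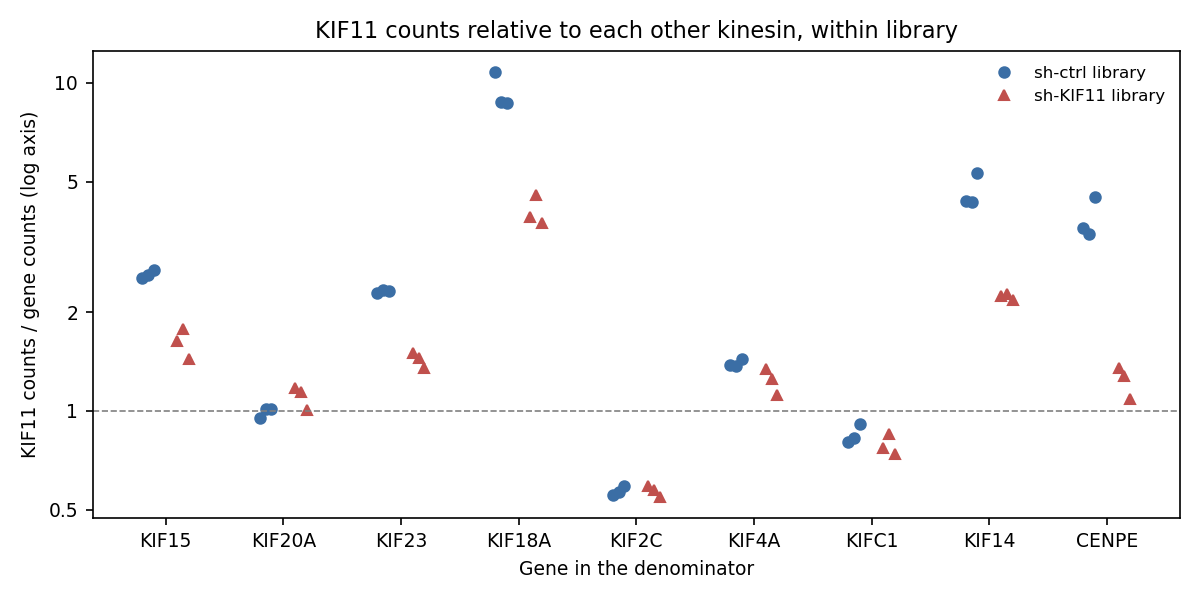
Counts of KIF11 divided by the counts of each other kinesin in the same library (log axis, dashed line at 1), with sh-ctrl libraries as circles and sh-KIF11 libraries as triangles. KIF11 per KIF15 goes from 2.54 to 2.69 down to 1.44 to 1.77, whereas the circles and triangles of KIF2C overlap between 0.548 and 0.589.

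Levels of different genes were compared in FPKM, which is per length and as deposited by the authors. In sh-ctrl the order was KIF2C (36.2 ± 0.4, SD, n = 3), KIFC1 (27.0 ± 0.8), KIF20A (21.5 ± 0.4), KIF11 (20.2 ± 0.6), KIF4A (11.9 ± 0.2), KIF23 (7.13 ± 0.27), KIF15 (4.27 ± 0.06), KIF14 (2.57 ± 0.29), KIF18A (2.07 ± 0.28) and CENPE (1.96 ± 0.22). The libraries of KIF14 and KIF18A overlapped, as did those of KIF18A and CENPE, and other neighbours did not. In sh-KIF11, KIF11 (12.9 ± 0.7) came between KIFC1 and KIF20A, and overlapped with the latter (12.6 ± 0.2). CENPE (3.82 ± 0.13) moved from the last place to one above KIF14 (3.52 ± 0.19) and KIF18A (3.12 ± 0.28), which overlapped with each other. KIF15 (4.45 ± 0.22) kept its place after KIF23. The mRNA of KIF11 thus stayed above that of KIF15 in both groups, while their proteins were not measured in these libraries. The sum over the 10 genes was 135 ± 1.2 FPKM in sh-ctrl and 100.1 ± 1.8 FPKM in sh-KIF11 (SD, n = 3, exact permutation p = 0.10, the smallest possible), and the share of KIF11 in it was 14.96% ± 0.44 and 12.93% ± 0.49.

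GC content and transcript length moved with the changes. The 4 untargeted kinesins that fell had the highest GC content of the 10, with 46.4% in the longest coding transcript of KIF4A, 48.4% in KIF20A, 50.4% in KIF2C and 57.9% in KIFC1. The 2 that did not pass the test followed, with 42.3% in KIF23 and 41.2% in KIF15, and the 3 that rose had 38.3% in KIF14, 37.0% in KIF18A and 35.3% in CENPE. KIF11 itself had 38.3%, like KIF14, and fell. Over the 9 kinesins without KIF11, Spearman's rho between GC content and log2 fold change was −0.93, and with transcript length it was 0.75; these genes were measured in the same 6 libraries. Over 12197 tested genes with a GC value, which were not independent either, rho was −0.31 for GC content and 0.29 for length. The median log2 fold change was 0.29 in the 1829 genes below 40% GC and −0.19 in the 3974 genes above 55% GC.

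When an offset for GC content was fitted to each library, an alternative chosen after seeing the data, 7 of the 10 kinesins were lower and 1, CENPE, was higher, where 32.2% of all tested genes were lower and 35.3% were higher. KIF11 then had a log2 fold change of −0.99, and with the GC and length offset it was −1.06, the most negative of the 10, ahead of KIF20A at −0.87. The offset cannot separate a bias of the libraries from a change that itself follows GC content, and which of them is at work was not tested.

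**Figure D4:**
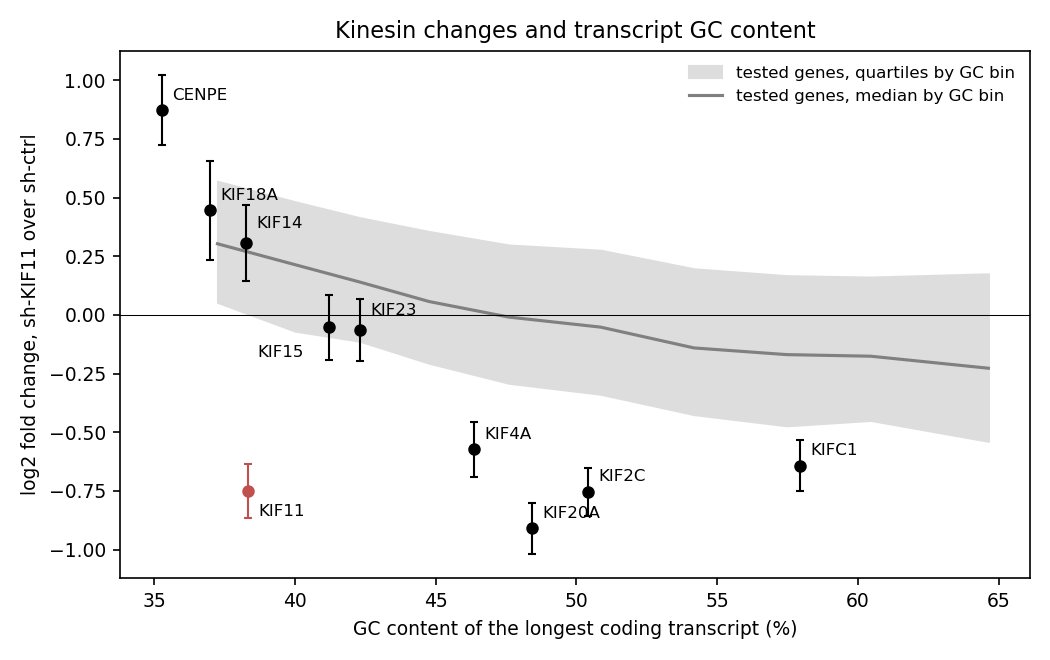
log2 fold change (sh-KIF11 over sh-ctrl, edgeR, with 95% intervals) of the 10 kinesins against the GC content of their longest coding transcript, over the median and quartiles of all tested genes in 10 bins of GC content. KIF11, at 38.3% GC, lies at −0.75, far below KIF14 and KIF18A of similar GC content, and KIF20A, KIF2C, KIF4A and KIFC1 lie below the quartile band.

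Position on the genome was also checked, since reads of overlapping genes can be split or lost. On GRCh38, KIF11 lies at chr10:92593286-92655395 (plus strand), KIF15 at chr3:44761717-44873376 (plus), KIF20A at chr5:138178719-138187715 (plus), KIF23 at chr15:69414246-69448427 (plus) and KIF18A at chr11:28020620-28108308 (minus). KIF2C lies at chr1:44739818-44767767 (plus), KIF4A at chrX:70290090-70420832 (plus), KIFC1 at chr6:33391536-33409924 (plus), KIF14 at chr1:200551497-200620734 (minus) and CENPE at chr4:103105806-103198409 (minus). KIF20A overlaps the coding genes BRD8 and CDC23 on the other strand, KIF18A overlaps METTL15 and KIF4A overlaps PDZD11 in the same way, and KIF15 overlaps TMEM42 on its own strand. The libraries were made with a stranded kit, but whether strand was used in counting is not given in the sources used here, so the values of these 4 genes carry that uncertainty. KIF11, KIF23, KIF2C and KIFC1 overlap only pseudogenes or antisense RNA genes, and KIF14 and CENPE overlap no annotated gene.

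All 10 promoters share a sequence feature. The cell cycle genes homology region (CHR) is a short element with the letters TTTGAA or TTTAAA, found in many promoters of G2 and M phase genes and bound by the DREAM and MYBL2-MuvB complexes; CCAAT boxes, bound by NF-Y, are often nearby. In RefSeq promoter windows (GRCh38.p14, 250 bases before to 50 after the start, matched by symbol for 10 of 10 genes), both strands were searched. A CHR match was present in the windows of all 10, against 24.0% of all 35116 windows and 15.6% of the 9754 windows of tested genes. A CCAAT match was present in 7, all but KIF15, KIF2C and CENPE, against 34.6% of all windows and 36.7% of those of tested genes. Both were present in 7 of 10, against 9.27% and 6.33%. The CHR match nearest the start of each gene is shown in capitals with 12 bases on either side, on the strand of the gene, so that the promoters of kinesins that fell and rose can be compared. TTCAAA is TTTGAA on the other strand.
KIF11 (chr10:92593090-92593119, plus strand): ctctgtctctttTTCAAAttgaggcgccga
KIF15 (chr3:44761747-44761776, plus strand): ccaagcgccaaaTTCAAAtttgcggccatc
KIF20A (chr5:138179059-138179088, plus strand): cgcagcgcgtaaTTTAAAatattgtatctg
KIF23 (chr15:69414282-69414311, plus strand): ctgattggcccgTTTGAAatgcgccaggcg
KIF18A (chr11:28108149-28108178, minus strand): aagtggcttgggTTTGAAtattgtggttga
KIF2C (chr1:44739822-44739851, plus strand): ttgcgcgcgggaTTTAAActgcggcggttt
KIF4A (chrX:70290058-70290087, plus strand): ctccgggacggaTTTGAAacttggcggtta
KIFC1 (chr6:33391815-33391844, plus strand): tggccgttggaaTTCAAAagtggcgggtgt
KIF14 (chr1:200620733-200620762, minus strand): gcggggcgcccaTTCAAAttgcggccttct
CENPE (chr4:103198388-103198417, minus strand): ggaaattttaaaTTTAAAggcggggcggcc
The first base of the match lay between 62 bases before the RefSeq start, in CENPE, and 5 bases after it, in KIFC1. The RefSeq starts differ from the ends of the gene spans given above, so these distances do not apply to those spans. CENPE has 2 TTTAAA matches side by side. The promoter of the targeted gene is shown whole upstream of its RefSeq start (chr10:92592880-92593129, plus strand), with its CCAAT match, read as ATTGG, and its CHR match in capitals.
KIF11 promoter: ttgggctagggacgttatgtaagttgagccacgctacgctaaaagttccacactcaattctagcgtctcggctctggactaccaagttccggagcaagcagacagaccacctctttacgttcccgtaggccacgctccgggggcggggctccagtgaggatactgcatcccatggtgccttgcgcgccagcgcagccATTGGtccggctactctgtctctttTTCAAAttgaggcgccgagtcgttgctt
A CHR match was thus found in kinesins that fell (KIF11, KIF20A, KIF2C, KIF4A, KIFC1), in those that rose (KIF18A, KIF14, CENPE) and in the pair that did not pass the test. A match is a description and not a binding site.

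Of 15 genes for regulators that act on such promoters, 6 fell, 2 rose and 7 did not pass the test, with a median log2 fold change of −0.08. The share that fell was near that of all tested genes, of which 34.7% were lower and 34.4% were higher. MYBL2 (B-MYB), the activator in the MuvB complex, fell by 0.89 on the log2 scale, from 389.7 to 210.4 CPM (edgeR adjusted p = 2.32e-19). FOXM1, the forkhead activator of G2 and M genes, fell by 0.61, from 169.6 to 111 CPM (edgeR adjusted p = 1.34e-13). RBL2 (p130), a pocket protein of the repressive DREAM complex, rose by 0.37, from 73.7 to 95.4 CPM (edgeR adjusted p = 9.80e-08). The other gene that rose was NFYB, a subunit of NF-Y (log2 fold change 0.26, edgeR adjusted p = 0.0032). The others that fell were LIN54 (−0.39), TFDP1 (−0.39), LIN52 (−0.28) and RBBP4 (−0.11). Whether these changes have a part in those of the kinesins was not tested. With scaling by library totals alone, 3 of the 15 were lower and 9 were higher, beside 19.2% and 53.5% of all tested genes. The list median was then 0.15 where that of all tested genes was 0.24.

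The partners of the kinesins fell more often than they rose, 18 lower and 3 higher of 27, with a median of −0.34. Among all tested genes, 34.7% were lower and 34.4% were higher. Of the 10 partners at the midzone, 9 were lower and ECT2 did not pass the test (log2 fold change 0.11, edgeR adjusted p = 0.065), and the median was −0.52. With library totals alone 7 were lower and 1 was higher, with a median of −0.29, beside 19.2% lower and 53.5% higher of all tested genes. BIRC5 (survivin) fell by 0.996 on the log2 scale, AURKB by 0.92, PLK1 by 0.78 and CDCA8 by 0.76. BIRC5, AURKB and CDCA8 encode parts of the chromosomal passenger complex that KIF20A transports, while PRC1, the microtubule bundler to which KIF4A binds, fell by 0.44 and RACGAP1, the centralspindlin partner of KIF23, by 0.59. CIT, citron kinase, the partner of KIF14, fell by 0.21 while KIF14 rose with TMM scaling. That rise did not hold with the GC offset (0.06, edgeR adjusted p = 0.49), and the difference between the 2 genes was not tested.

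Of 9 partners at the spindle poles, 5 were lower and 1 was higher, with a median of −0.41. With library totals alone 5 were lower and 4 were higher, with a median of −0.17. All tested genes had 34.7% lower and 34.4% higher, and 19.2% and 53.5% with library totals alone. TPX2, which targets KIF11 and KIF15 to spindle microtubules, fell by 0.55 on the log2 scale, and the kinase AURKA that it activates fell by 0.56. CDK1, whose phosphorylation of KIF11 brings it to the spindle, fell by 0.41. Of the NEK kinases upstream of KIF11, NEK6 fell by 0.44, NEK9 rose by 0.52 and NEK7 had a value of 0.18 that did not pass the test (edgeR adjusted p = 0.070).

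Of 8 partners at kinetochores and microtubule ends, 4 were lower and 2 were higher, with a median of −0.17. All tested genes had 34.7% lower and 34.4% higher. The balance of the 8 turned with library totals alone, where 1 was lower and 3 were higher. The median was then 0.060, below the 0.24 of all tested genes, of which 19.2% were lower and 53.5% higher under that scaling. With the GC offset 6 were lower and 1 was higher, with a median of −0.26, beside 32.2% and 35.3% of all tested genes. BUB1B (BubR1), which binds CENPE, fell by 0.18 and CENPF, a large kinetochore protein that also binds CENPE, rose by 0.22. MAPRE1 (EB1), which brings KIF2C to growing ends, rose by 0.18. With library totals alone, 13 of all 27 partners were lower and 8 were higher, with a median of −0.11 against 0.24 for all tested genes.

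Other kinesins gave a comparison. Of 6 further mitotic kinesins, 5 were tested, and 2 were lower and 2 higher, with a median of −0.12. Under library totals alone, 1 was lower and 2 were higher, with a median of 0.11. All tested genes had 34.7% lower and 34.4% higher, and 19.2% and 53.5% under library totals alone. With either the GC offset or the GC and length offset, 2 were lower and 1 was higher. The 2 rises given below therefore did not both keep their call with an offset. KIF22 (Kid), a chromosome arm motor, fell from 193.6 to 108.7 CPM (log2 fold change −0.83, GC content 58.9%) and KIF18B from 71.8 to 56.2 CPM (−0.35, 58.4%). KIF20B rose from 70.6 to 95.7 CPM (0.44, 34.2%) and KIF2A, a kinesin-13 like KIF2C, from 40.9 to 55.5 CPM (0.44, 41.6%). KIF4B did not pass the test, and KIF2B was listed at 0 in all 6 libraries. A list of 28 other kinesins held mostly, but not only, genes with roles in transport and cilia, and 22 were tested. Of these, 2 were lower and 13 higher, with a median of 0.26, beside 34.7% lower and 34.4% higher among all tested genes. Scaling by library totals alone gave 1 lower and 18 higher, with a median of 0.49. Their difference from the 10 mitotic kinesins was not tested as a set.

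Among cell cycle genes, 36 of 50 G2/M genes were lower and 5 were higher, with a median of −0.43. Of 43 S phase genes, 27 were lower and 4 were higher, with a median of −0.26. All tested genes had 34.7% lower and 34.4% higher. The 50 G2/M genes do not include the 10 kinesins, but they include 14 of the 27 partners. They also include KIF20B of the further mitotic kinesins, which rose and is thus counted in both lists. With library totals alone, 28 were lower and 12 higher among the G2/M genes, with a median of −0.20, and 17 were lower and 16 higher among the S phase genes, with a median of −0.031. These counts stand beside the 19.2% lower and 53.5% higher of all tested genes under that scaling, whose median was 0.24. With the GC offset, chosen after seeing the data, 42 G2/M genes were lower and 1 was higher, with a median of −0.46. Among the S phase genes 28 were then lower and 2 higher, with a median of −0.25, beside 32.2% and 35.3% of all tested genes.

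**Figure D5:**
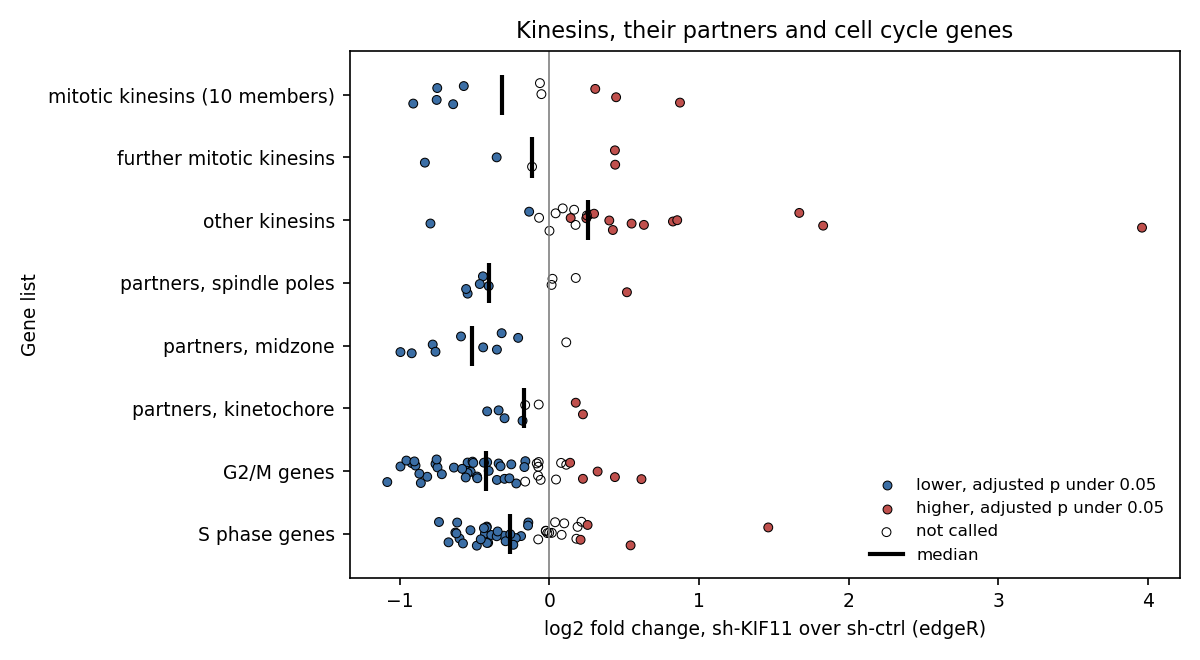
log2 fold changes (sh-KIF11 over sh-ctrl, edgeR) of the 10 kinesins and 7 further lists, 1 point per tested gene, filled where the adjusted p was under 0.05 and with a bar at the median. The kinesins spread on both sides of 0 with a median of −0.32, while the midzone partners have 9 of 10 points on the lower side and the other kinesins have a median of 0.26.

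The genes whose pattern was most like that of KIF11 were found by the distance between log2 CPM values, centred on each gene's mean over the 6 libraries, among 9391 genes of at least 10 CPM. The nearest 5 were RPS29 (distance 0.070), NEK2 (0.071), FANCC (0.079), ATP5MC3 (0.084) and SPAG5 (0.087), and KIF2C came next, at rank 6. The other members stood at rank 284 (KIFC1), 402 (KIF20A), 544 (KIF4A), 4308 (KIF23), 4558 (KIF15), 7460 (KIF14), 8249 (KIF18A) and 9104 (CENPE). Of the 5 nearest genes, NEK2 encodes a centrosomal kinase and SPAG5 (astrin) a spindle protein, while RPS29 encodes a ribosomal protein, FANCC a DNA repair protein and ATP5MC3 a subunit of ATP synthase. The 5 had log2 fold changes from −0.77 to −0.71 with TMM scaling, beside −0.75 for KIF11, so their group differences were of similar size. With the GC offset KIF11 was at −0.99 and KIF2C at −0.66, and the ranking was not repeated under that offset.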

How the data were processed

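Poly(A) RNA of HepG2 cells was sequenced as 150 bp paired-end reads from 6 stranded libraries. Groups and replicate numbers came from the labels. In the tables the knockdown columns are named only as shRNA, and stand for sh-KIF11, since no shRNA other than the control is labelled. The submitters' processing notes name Trimmomatic, HISAT2 2.1.0, HTSeq 0.9.1, Cufflinks 2.2.1 and the GRCh38 build, with no annotation release. The authors deposited raw counts per gene and FPKM values, scaled to transcript length and library size, for the same 20030 genes.

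Counts were fitted here with edgeR 4.0.16 (R 4.3.3): filterByExpr, which kept 12369 genes and left out 7661, TMM scaling, quasi-likelihood test with group as the only term, two-sided, and Benjamini-Hochberg adjustment over all tested genes with a threshold of 0.05. The procedure was tested on simulated counts. Ratios used log2(count + 0.5) and exact permutation tests over libraries. log2 CPM for the distance used a prior count of 2. The GC offset was a lowess curve (span 0.3) per library on GC content of the longest coding transcript of GENCODE release 29; the second offset added length. Alternatives were RLE, upper-quartile and total scaling, the replicate block, no low-count filter, a minimum of 10 counts per library, each library left out, DESeq2 1.42.0, and limma 3.58.1 on log2(FPKM + 1) and log2(FPKM + 0.1).

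The 10 kinesins, the gene lists (further mitotic and other kinesins, partners, regulators, S phase, G2/M, hepatocyte and other cell type markers) and the tests were chosen with earlier results of these data known. Named are the members, genes of the partner and further mitotic kinesin lists and the 5 tested genes of at least 10 CPM nearest to KIF11; regulators and markers were named after their values were seen. Lists are described by counts and medians. The labels' replicate numbers did not pair the libraries: deviations from group means correlated at 0.030, -0.018 and -0.0025 between same-numbered libraries.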

Additional observations from a re-analysis of the deposited data

How the results depend on the processing

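The fall of KIF11 kept its direction and its call under every alternative, from −1.06 with the GC and length offset to −0.52 with library totals alone, and from −0.79 to −0.69 when each library was left out. The count of lower kinesins was 5 under every other alternative and 7 with both offsets, which were added after seeing the data. The count of higher kinesins went from 3 to 5 with library totals alone and to 1 with either offset. The median of the 10 went from −0.32 to −0.087 with library totals alone and to −0.17 with log2(FPKM + 1). KIF15 turned to 0.025 with upper-quartile factors, 0.18 with library totals alone, 0.047 with log2(FPKM + 1) and 0.057 with log2(FPKM + 0.1). KIF23 turned to 0.015, 0.17, 0.050 and 0.056 in the same order. Only library totals gave either gene a call (edgeR). The median of all tested genes rose too, from 0.0043 to 0.083, 0.24, 0.12 and 0.17 in that order. Any further cause was not tested. KIF14 turned to −0.037 with the GC and length offset. The log2 change of the ratio of KIF11 to KIF2C was −0.047 with FPKM in place of counts, and leaving out libraries moved it from −0.022 to 0.031. Of the 170 alternative values of single kinesins, 154 kept direction and call. Of the 90 alternative values of the ratios, 85 kept their direction. With the replicate block KIF11 was at −0.75, 8607 genes were called in place of 8548, and the counts of kinesins stayed at 5 lower and 3 higher. In the paired form of the ratio test the KIF11/KIF15 change was −0.70 with an exact p of 0.25, the smallest that 3 pairs allow. The same-numbered libraries share only a number, so the block says nothing of a weaker effect. Depth limits KIF18A most among the 10, with 183 to 370 counts.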
